A study of Mus musculus with 2 samples.

Results

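Mitosis genes were examined in the skin of newborn mice without Pla2g4e. The 36 genes are mitotic kinases, cyclins, spindle and kinetochore proteins and cytokinesis factors, and they were found as the non-control probes of the array whose gene name is on a list of such genes. All 36 had a probe well above background on both arrays, out of 19251 measured genes in all. The RNA came from 2 pools: skin RNA of Pla2g4e-/- (knockout, KO) mice and skin RNA of Pla2g4e+/+ (wild type, WT) mice, both of the strain C57BL/6N at postnatal day 0. Each pool held equal RNA amounts of 5 animals and was read on 1 array, so the spread among animals and among pools is unknown and the differences below carry no p-values. Pla2g4e encodes a cytosolic phospholipase A2, and the series is about its part in psoriasis-like inflammation, a condition of skin in which epidermal cells are known to divide more.

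Mitosis begins when cyclin B and its kinase CDK1 become active, after which the chromosomes condense, attach through kinetochores to the spindle and wait at a checkpoint until all are attached. The anaphase-promoting complex then marks cyclins and other proteins for destruction, the chromosomes part and cytokinesis cuts the cell into daughters. In newborn mouse skin the cells known for division are those of the basal epidermis, the matrix of the growing hair follicles and the young dermis. The RNAs of mitosis genes are transcribed late in the cycle, so their level in a tissue is commonly read as a mark of dividing cells.

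Transcription of these genes in late cycle is known to pass through a promoter element named CHR, written TTTGAA or less often TTTAAA, which is bound by MuvB complexes together with B-MYB and FOXM1, and through CCAAT boxes bound by NF-Y. The promoters of the member with the lowest value (Ttk), of cyclin B1 (Ccnb1) and of the member with the smallest deficit among those with such an element (Cenpe) are shown because they hold these elements at both ends of the order. They are RefSeq sequences of the build GRCm38.p6, from 250 bases before to 50 bases after the gene's start, 5′ to 3′ on the gene's strand. Capitals mark CHR letters and CCAAT boxes on either strand. Ttk lies at chr9:83834439-83834738 on the plus strand, Ccnb1 at chr13:100786437-100786736 on the minus strand and Cenpe at chr3:135212313-135212612 on the plus strand.
Ttk: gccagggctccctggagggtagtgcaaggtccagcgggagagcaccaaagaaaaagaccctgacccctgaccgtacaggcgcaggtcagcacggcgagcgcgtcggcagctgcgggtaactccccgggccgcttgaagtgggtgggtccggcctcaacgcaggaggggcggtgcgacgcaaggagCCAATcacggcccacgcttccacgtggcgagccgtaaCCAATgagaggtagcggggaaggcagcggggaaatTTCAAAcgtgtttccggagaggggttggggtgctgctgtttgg
Ccnb1: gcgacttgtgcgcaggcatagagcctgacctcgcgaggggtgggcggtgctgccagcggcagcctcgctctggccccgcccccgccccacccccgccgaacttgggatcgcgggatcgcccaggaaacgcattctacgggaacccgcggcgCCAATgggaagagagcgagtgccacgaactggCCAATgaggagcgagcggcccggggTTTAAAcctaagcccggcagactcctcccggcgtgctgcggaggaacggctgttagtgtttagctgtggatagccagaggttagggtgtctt
Cenpe: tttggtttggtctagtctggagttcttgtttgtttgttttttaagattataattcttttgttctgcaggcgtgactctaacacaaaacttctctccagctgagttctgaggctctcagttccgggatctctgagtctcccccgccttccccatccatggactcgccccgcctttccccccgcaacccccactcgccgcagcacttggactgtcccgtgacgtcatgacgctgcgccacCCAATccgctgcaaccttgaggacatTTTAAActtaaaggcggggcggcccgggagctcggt

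Ttk and Ccnb1 each hold 2 CCAAT boxes followed by a CHR match, which begins at base 8 after the start in Ttk, read from the opposite strand, and at base -42 in Ccnb1. Cenpe holds 1 CCAAT box at -12 and a CHR match at 15. Promoters of 31 of the 36 genes were matched by symbol, all but those of Ccna2, Aurkb, Kif20a, Tpx2 and Foxm1. Of these 31 genes, which had 33 promoters, 24 (77.4%) held TTTGAA on either strand in at least 1 promoter, against 6 of 35 replication genes (17.1%) and 20.2% of 27025 genes with a promoter of this length. A CCAAT box on either strand was found in 25 (80.6%), against 54.3% of the replication genes and 41.1% of all genes. TTTGAA and CCAAT together were present in 21 (67.7%), against 3 replication genes (8.57%) and 7.97% of all genes. The form TTTAAA was found in 9 (29.0%), against 14.3% of the replication genes and 14.9% of all genes. Neither form of CHR was found in the windows of Bub1, Nusap1, Nek2 and Nuf2. Among a further 58 genes of mitosis, described below, 31 (53.4%) held TTTGAA and 39 (67.2%) CCAAT. Both strands were searched, TTTGAA also as TTCAAA and CCAAT also as ATTGG, and a CHR match shared bases with a CCAAT match in 1 of the 31 genes. Members with and without an element had similar differences between the pools, and the order depended on the form. The median was -0.32 log2 for the 24 genes with TTTGAA and -0.29 for the 7 without it, but -0.25 for the 9 with TTTAAA and -0.35 for the 22 without it. With either form it was -0.32 for 27 genes, and with neither -0.39 for 4. A match of letters is a description and says nothing of binding.

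**Figure D1:**
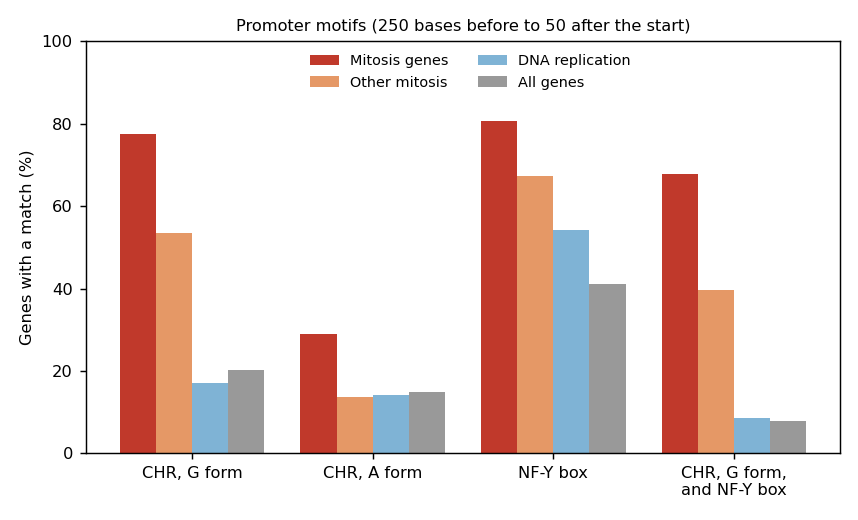
The share of genes whose promoter holds each element, in percent, for the mitosis genes, the other mitosis genes, replication genes and all genes; CHR G form is TTTGAA, CHR A form TTTAAA and NF-Y box CCAAT, each on either strand. Of these 4 sets of genes, the mitosis genes have the tallest bar in each of the 4 groups, at 77.4% for the G form and 67.7% for the G form with the NF-Y box.

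The values below rest on Agilent 1-colour arrays with probes of 60 bases. Readings are processed intensities without scaling, and differences are KO minus WT on a log2 scale after each array was set to the 75th percentile of its probes, which was 2096 in the KO pool and 2233 in the WT pool. A difference taken straight from the readings is therefore 0.09 log2 below the scaled one. By the scanner's error model the typical difference carried an error of 0.20 log2 (median over probes), which covers spots and leaves out the animals. The epidermal markers Krt5, Krt14, Krt1, Krt10 and Lor were bright in both pools, and Krt5 read 224586 in the KO pool and 247197 in the WT pool. Pla2g4e itself read 320 in the KO pool and 662 in the WT pool (-0.96 log2), and whether its probe lies in the deleted part of the gene is unknown here. The pools also differed in sex-linked RNA, with Ddx3y at 2.36 in the KO pool and 2893 in the WT pool, and Xist at 2889 in the KO pool and 796 in the WT pool. Sex and genotype cannot be told apart here, and 0 of the 36 genes lie on the X or Y chromosome. Both arrays lay on the same slide, and the position on it and the genotype cannot be told apart either.

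Nearly all of the 36 mitosis genes were lower in the KO pool, by much the same small amount. Of the 36, 35 lay below 0, where 48.1% of all measured genes did. The median difference was -0.34 log2, which is 78.9% of the WT level, against 0.01 log2 over all measured genes. Lower by at least 0.32 log2, that is at or below 80% of the WT level, were 21 of the 36, against 12.8% of all genes, and higher by at least 0.32 log2 were 0, against 16.1% of all genes. Past 1.5-fold stood 1 member on the lower side, Ttk, which is 2.78% of the members against 4.48% of all genes, and 0 on the higher side, against 6.77%. The difference was thus spread over nearly all members and, apart from Ttk, under 1.5-fold in each. The middle 50% of the members lay between -0.40 and -0.28, a width of 0.11 log2, while the middle 50% of all genes ran from -0.17 to 0.20, a width of 0.37. Of the members, 28 lay between 0.2 and 0.5 log2 below 0. The share of all measured genes in that band was not counted, so the 28 only describe the members. Within 0.05 of the line at 0.32 lay 14 members, so that the count at that line moves easily. Just past it were Prc1, at 79.8% of the WT level, and Kif11, and just short of it Kif2c, at 80.2%, and Aurka, at 80.3%. Single differences were mostly between 1 and 2 times the scanner error: 32 members differed by more than 1 scanner error and 7 by more than 2. The share of all measured genes past these lines was not counted, so these counts do not show how unusual the members are. Most members were bright, with 27 above the median signal of measured genes. Of these 27, 26 lay below 0, against 48.2% of the 9625 brighter genes, and 15 were lower by at least 0.32 log2, against 9.69% of them. In whole skin, fewer dividing cells and less RNA of these genes per cell cannot be told apart.

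**Figure D2:**
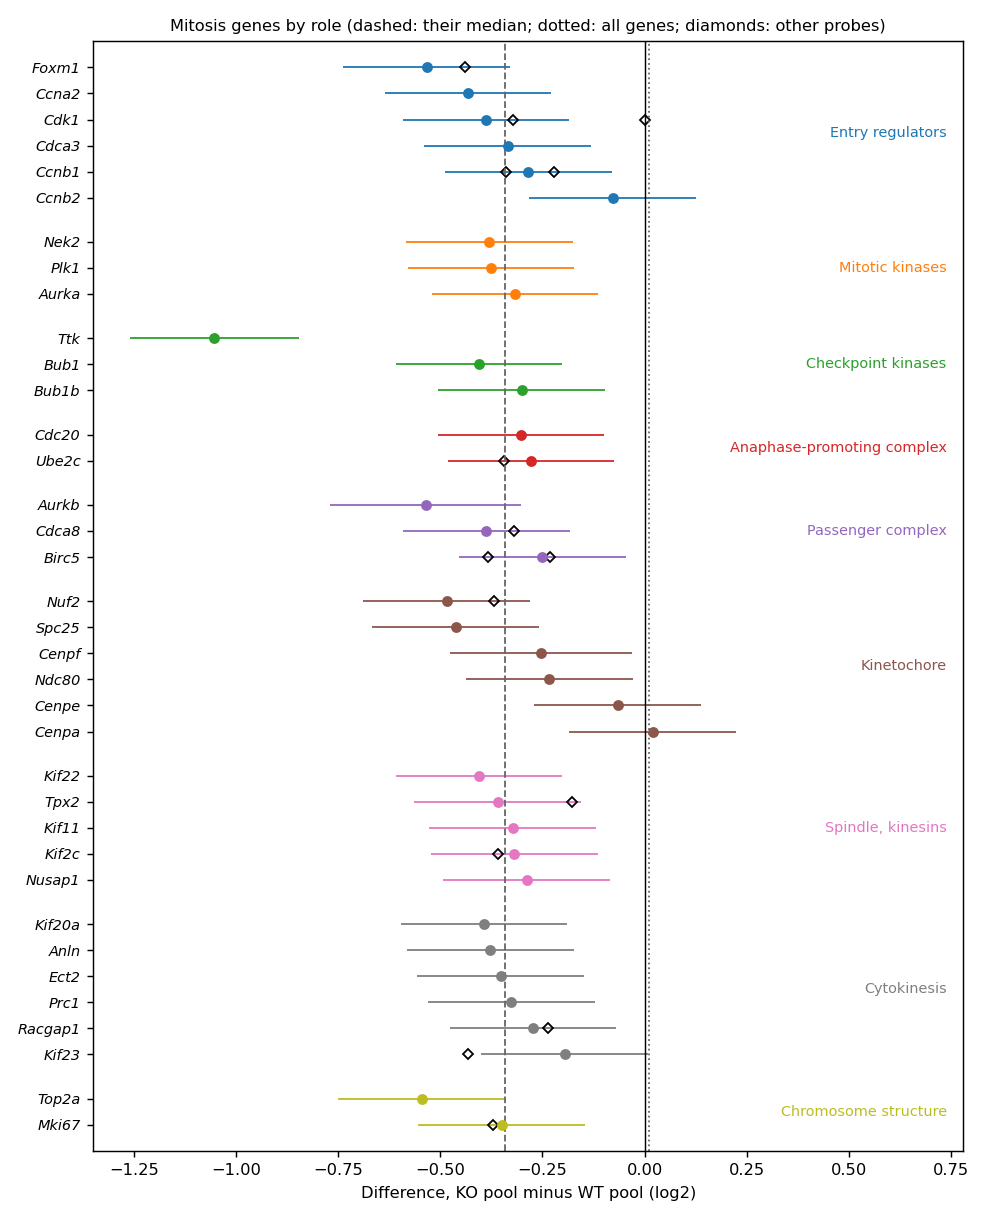
The difference of each of the 36 mitosis genes, KO minus WT in log2, ordered by role; filled points are the brightest probe of the gene with the scanner error as a bar, and open diamonds are its other measured probes. The points gather around the dashed median of -0.34, with Ttk at -1.05 far to the left and Cenpa, Cenpe and Ccnb2 near 0.

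The 6 regulators of entry into mitosis were all lower, 4 of them by at least 0.32 log2, and cyclin B2 differed least. Foxm1, the transcription factor of late cycle genes, read 1283 in the KO pool and 1979 in the WT pool, a difference of -0.53 log2. Ccna2, the cyclin of S phase and early mitosis, read 5265 in the KO pool and 7567 in the WT pool (-0.43). Cdk1, the kinase that drives entry, read 2364 in the KO pool and 3295 in the WT pool (-0.39). The other cyclins and Cdca3 differed by less. Cdca3, which helps to remove the CDK1 inhibitor WEE1, read 5762 in the KO pool and 7745 in the WT pool (-0.34). Ccnb1, the main mitotic cyclin, read 4597 in the KO pool and 5964 in the WT pool (-0.28). Ccnb2, its relative, read 8940 in the KO pool and 10051 in the WT pool (-0.08), which is 94.8% of the WT level and within the scanner error of 0.

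The kinases of spindle and centrosome had nearly equal differences. Plk1, which acts from centrosome maturation to cytokinesis, read 6298 in the KO pool and 8710 in the WT pool (-0.38). Nek2, a centrosome kinase that frees the paired centrosomes, read 599 in the KO pool and 831 in the WT pool (-0.38). Aurka, the Aurora kinase of the spindle poles, read 3799 in the KO pool and 5043 in the WT pool (-0.32). They differed from each other by less than a scanner error.

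The checkpoint kinases held the member farthest from the rest. Ttk (also known as Mps1), which starts the spindle checkpoint at unattached kinetochores, read 125 in the KO pool and 276 in the WT pool, a difference of -1.05 log2 with a scanner error of 0.21, or 48.2% of the WT level. It stood at place 246 from the bottom of the 19251 measured genes. Bub1, a checkpoint kinase recruited by TTK, read 779 in the KO pool and 1099 in the WT pool (-0.41), and Bub1b, which encodes the checkpoint protein BUBR1, read 1248 in the KO pool and 1637 in the WT pool (-0.30). Ttk had 1 probe, below the median signal of measured genes and with no genome position in the files, so the size rests on that probe. With normexp background correction, which draws dim signals together, Ttk stood at -0.74.

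The probes of the members at the ends of the order, and of Bub1, are shown because each carries its gene's value here. They are sequences of the array's design, printed whole in lower case, and each holds at least 1 reading frame with no stop codon. That was a condition for printing them and says nothing of what the probes read. Top2a lies at mm9 chr11:98855522-98855581 and Bub1 at chr2:127626988-127627047, both on the minus strand, while the files give no position for the probes of Ttk and Cenpa.
Ttk: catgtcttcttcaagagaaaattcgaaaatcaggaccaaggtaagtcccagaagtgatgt
Top2a: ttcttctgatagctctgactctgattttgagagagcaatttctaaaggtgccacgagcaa
Bub1: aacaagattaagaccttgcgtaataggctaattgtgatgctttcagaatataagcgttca
Cenpa: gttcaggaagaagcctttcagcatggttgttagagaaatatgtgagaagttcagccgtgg

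The Bub1 probe was printed 10 times on each array, which shows how well a difference of this size can be read. Its spots read from 705 to 846 in the KO pool, with a median of 783, and from 990 to 1207 in the WT pool, with a median of 1093. No KO spot reached the lowest WT spot. Spot by spot, the scaled difference was -0.41 ± 0.06 log2 (SD over 10 spots, not animals), from -0.51 to -0.29. Over the 261 probes of the array with 10 usable spots above background, the median SD of the difference was 0.03 log2. That is below the 0.20 log2 of the scanner's error model. The spots of an array share 1 pool and 1 labelling.

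**Figure D3:**
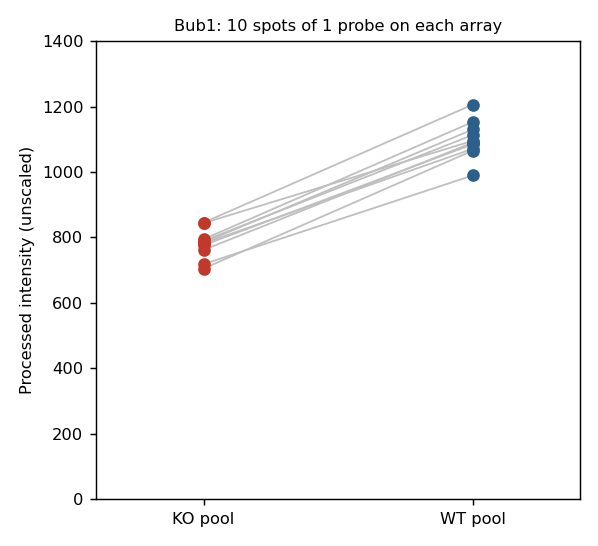
The processed intensity of the 10 spots of the Bub1 probe in the KO pool and the WT pool, on a linear axis from 0, with lines joining spots at the same place on both arrays. All KO spots, up to 846, lie below all WT spots, which begin at 990.

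An activator and an enzyme partner of the anaphase-promoting complex, and 3 subunits of the chromosomal passenger complex, were lower too. Cdc20, the activator that turns the anaphase-promoting complex on, read 11112 in the KO pool and 14597 in the WT pool (-0.30). Ube2c, the ubiquitin-conjugating enzyme of that complex, read 4398 in the KO pool and 5682 in the WT pool (-0.28). By these probes both stayed above 80% of the WT level, while a second bright probe of Ube2c stood at 78.8%. In the passenger complex, which corrects faulty attachments and later guides cytokinesis, the kinase Aurkb read 33.3 in the KO pool and 51.4 in the WT pool (-0.54). Its probe was dim, with a scanner error of 0.23, and with normexp the difference of Aurkb was -0.14. The other subunits had bright probes. Cdca8 (borealin) read 7678 in the KO pool and 10701 in the WT pool (-0.39), and Birc5 (survivin) read 17960 in the KO pool and 22760 in the WT pool (-0.25).

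Kinetochore and centromere genes ran from -0.48 to 0.02, and 2 of the 6 were lower by at least 0.32 log2. Nuf2 and Spc25, subunits of the NDC80 complex that grips microtubules, were the lowest of them: Nuf2 read 474 in the KO pool and 707 in the WT pool (-0.48). Spc25 read 10435 in the KO pool and 15318 in the WT pool (-0.46). Ndc80, the namesake subunit of the same complex, read 708 in the KO pool and 887 in the WT pool (-0.23), from a probe with no genome position. Each of these values carries a scanner error of 0.20, so whether the subunits were lower by unequal amounts cannot be told. Cenpf, a large protein of the outer kinetochore, read 51.8 in the KO pool and 65.8 in the WT pool (-0.25), from a dim probe whose difference was 0.01 with normexp. Cenpe, the kinesin that moves chromosomes to the spindle's middle, read 8094 in the KO pool and 9027 in the WT pool (-0.07). Cenpa, the histone H3 variant that marks the centromere, read 3890 in the KO pool and 4087 in the WT pool. After scaling its difference was 0.02, the only member above 0, and it lay below 0 when the arrays were centred on the median of measured genes.

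Spindle proteins and kinesins lay close to the median of the members. Kif22, a kinesin that pushes chromosome arms, read 6223 in the KO pool and 8777 in the WT pool (-0.40). Tpx2, which activates Aurora A on the spindle, read 2003 in the KO pool and 2738 in the WT pool (-0.36). Kif11, the kinesin that separates the spindle poles, read 738 in the KO pool and 983 in the WT pool (-0.32). The span from the lowest to the highest of the 5 was narrower than the scanner error of any of them. Kif2c, which takes microtubules apart at centromeres, read 260 in the KO pool and 346 in the WT pool (-0.32). Nusap1, a microtubule bundler, read 2343 in the KO pool and 3049 in the WT pool (-0.29).

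Genes of the central spindle and of cytokinesis were lower in the same range. Kif20a, a kinesin that carries the passenger complex to the central spindle, read 3716 in the KO pool and 5198 in the WT pool (-0.39). Anln, the anillin of the contractile ring, read 5468 in the KO pool and 7567 in the WT pool (-0.38). Ect2, which activates RhoA at the ring, read 2265 in the KO pool and 3081 in the WT pool (-0.35). These stood at or below 80% of the WT level, as did Prc1. Prc1, which bundles the midzone microtubules, read 7273 in the KO pool and 9713 in the WT pool (-0.33). Racgap1, which together with Kif23 forms centralspindlin, read 2213 in the KO pool and 2850 in the WT pool (-0.27). Kif23 read 1529 in the KO pool and 1865 in the WT pool (-0.20), which is within its scanner error. That probe has no genome position, and a much dimmer probe of Kif23 on the gene's own chromosome stood at -0.43.

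The general marks of dividing cells were lower as well. Mki67, the surface coat protein of mitotic chromosomes and the usual histological mark of proliferation, read 19269 in the KO pool and 26160 in the WT pool (-0.35), or 78.5% of the WT level. Top2a, the topoisomerase that untangles sister DNA, read 2268 in the KO pool and 3528 in the WT pool (-0.55), or 68.5% of the WT level, the lowest after Ttk.

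**Figure D4:**
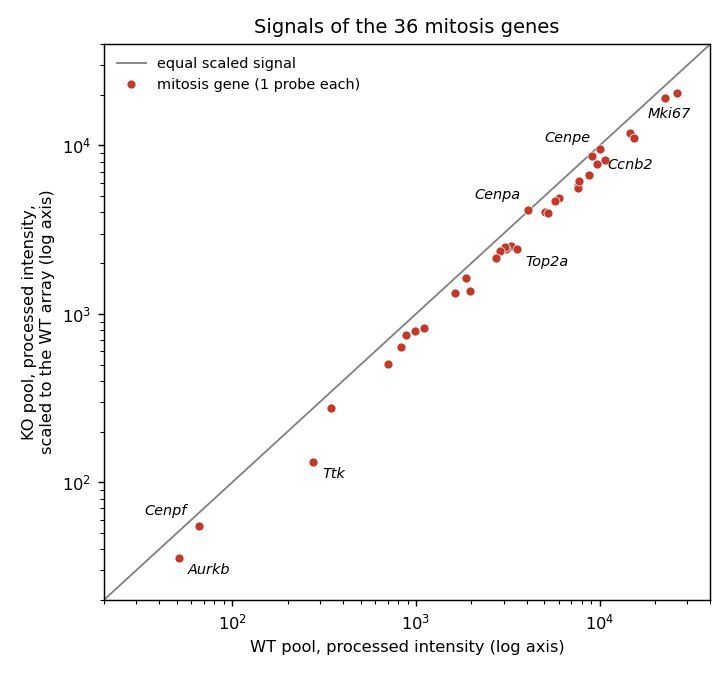
The processed intensity of each of the 36 genes in the WT pool (horizontal, log axis) and in the KO pool after scaling to the WT array (vertical, log axis); the line marks equal signal. The points run below and along the line over the whole range, from Aurkb (33.3 before scaling in the KO pool, 51.4 in the WT pool) to Mki67, with Cenpa on it.

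Separate probes of a gene gave the same direction in all but 1 case. The 36 genes had 52 probes, of which 51 were well above background on both arrays, and 49 of these lay below 0. Where 2 or more probes of a gene were measured, which held for 12 genes, they had 1 sign in 11, and their median range was 0.11 log2. The exception was Cdk1, whose 3 probes stood at -0.39, -0.32 and 0.00. The first pair share 41 of their 60 bases and are thus hardly separate measurements, and the probes at -0.32 and 0.00 were both dim. Mki67 had probes at -0.35 and -0.37, Foxm1 at -0.53 and -0.44, and Birc5 at -0.25, -0.23 and -0.38. The files place 3 probes on a chromosome other than that of the gene in RefSeq, namely 2 of Ccnb1 (-0.34 and -0.22) and 1 of Racgap1 (-0.24); none of them stands for its gene above. With only probes placed on the gene's own chromosome, an alternative chosen after the data were seen, 33 members had a value, with a median of -0.35. This choice drops Cenpa, the member above 0, as well as Ttk and Ndc80, since their probes have no position. For Kif23 it takes the dimmer probe at -0.43 in place of the one at -0.20. Near-identical copies of a gene elsewhere in the genome can share signal with its probe.

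Other genes of mitosis had a median close to that of the 36. Of 72 listed names, 70 had a measured gene, 68 of them below 0, with a median of -0.35 log2. Lower by at least 0.32 log2 were 38 of the 70 and higher 1, against 12.8% and 16.1% of all genes. Past 1.5-fold 9 were lower and 1 was higher, against 4.48% and 6.77% of all genes. Mybl2, which encodes B-MYB, read 2100 in the KO pool and 4357 in the WT pool (-0.96). Pbk, a mitotic kinase, read 1410 in the KO pool and 2764 in the WT pool (-0.88). The remaining values above 0 belonged to 2 genes. Wee1, the kinase that holds CDK1 inactive, read 3215 in the KO pool and 2253 in the WT pool (0.60), and Pttg1, the securin that guards sister chromatid cohesion, read 8423 in the KO pool and 7769 in the WT pool (0.21).

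Replication genes had larger differences than mitosis genes on these arrays. All 42 measured of 44 listed lay below 0, with a median of -0.52 log2, or 69.8% of the WT level, against -0.34 for the mitosis genes. The width of their middle 50% was 0.31 log2, against 0.11 for the 36 mitosis genes. Lower by at least 0.32 log2 were 34 of 42, against 21 of 36 mitosis genes, and at least 1.5-fold lower 16 of 42, against 1 of 36. Of all measured genes, 12.8% and 4.48% were lower by these amounts. Whether the lists differ beyond the spread of pools was not tested, as there is 1 array per genotype. The lowest was Orc1, which marks replication origins, with 62.4 in the KO pool and 133 in the WT pool, 50.1% of it after scaling. Its probe was dim. Next came Mcm2, of the replicative helicase, with 1653 in the KO pool and 3404 in the WT pool (-0.95). Gins4 (-0.08) and Gins3 (-0.01), both of the helicase's partner complex, were nearest to 0.

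Genes of G1 phase and brakes on the cycle lay on both sides of 0. Of 27, 11 were below 0, with a median of 0.09 log2; the mean was -0.01. Lower by at least 0.32 log2 were 6 (22.2%), against 12.8% of all genes, and higher 5, against 16.1%. Rbl1, which encodes p107 and is itself a gene of dividing cells, read 1370 in the KO pool and 2520 in the WT pool (-0.79). Ccnd2, a G1 cyclin, read 14108 in the KO pool and 23673 in the WT pool (-0.66). Most CDK inhibitors of the list lay above 0, with Cdkn1a at 0.12, Cdkn2d at 0.14, Cdkn2b at 0.27, Cdkn1b at 0.44 and Cdkn1c at 0.46. Below 0 were Cdkn2c at -0.62 and Cdkn2a at -0.60, the latter from a dim probe (49.2 in the KO pool, 79.2 in the WT pool). The inhibitors were picked out of the list after their values were seen. The highest values of the list were those of Ccng2 and Btg2. Ccng2, a cyclin of arrested cells, read 504 in the KO pool and 365 in the WT pool (0.56), and Btg2, which restrains proliferation, read 2919 in the KO pool and 2246 in the WT pool (0.47).

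Genes of the hair matrix, shaft and inner root sheath were lower in the KO pool as the mitosis genes were, and most genes of basal keratinocytes were not. The hair list mixes factors of the matrix with keratins of cells that have left division. All 20 genes of the hair list lay below 0, with a median of -0.59 log2, from Krt31 (-1.29) and Krt82 (-1.10), keratins of the shaft, to the transcription factors Lef1 (-0.17) and Gata3 (-0.05). Lower by at least 0.32 log2 were 16 of the 20, against 12.8% of all genes. Krt31 read 2588 in the KO pool and 6722 in the WT pool. Their part in the result on mitosis genes was not tested. The 12 basal keratinocyte genes had a median of 0.21 log2. Lower by at least 0.32 log2 were 0 of them and higher 3, against 12.8% and 16.1% of all genes. Dst (0.72) and Lamb3 (0.48) were highest and Krt5 (-0.05) lowest. The median of 10 fibroblast genes was 0.10, from Pdgfra (0.49) and Mfap5 (0.41) to Dpt (-0.01) and Lum (-0.23).

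Most genes of stressed and psoriatic epidermis were higher in the KO pool, while Krt17 was lower. Of 8 measured genes of stressed keratinocytes, 6 were at least 1.5-fold higher, against 6.77% of all genes. The median of the 8 was 1.73 log2. Krt6b read 84513 in the KO pool and 10648 in the WT pool (3.08), and S100a9, a protein of inflamed epidermis and neutrophils, read 16197 in the KO pool and 3357 in the WT pool (2.36). Stfa1 (0.18) and Krt17 (-0.21) were lowest. The median of 11 measured erythroid genes was 0.64, from Hbb-y (1.99) and Rhd (1.04) to Hbb-bh1 (-0.08) and Tal1 (-0.10). The probes of Hbb-y, Rhd and Hbb-bh1 were dim, with Hbb-y at 118 in the KO pool and 31.5 in the WT pool. The median of 10 housekeeping genes was 0.15, with Gapdh at 0.21 and Tbp (-0.12) and Hprt (-0.23) lowest.

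**Figure D5:**
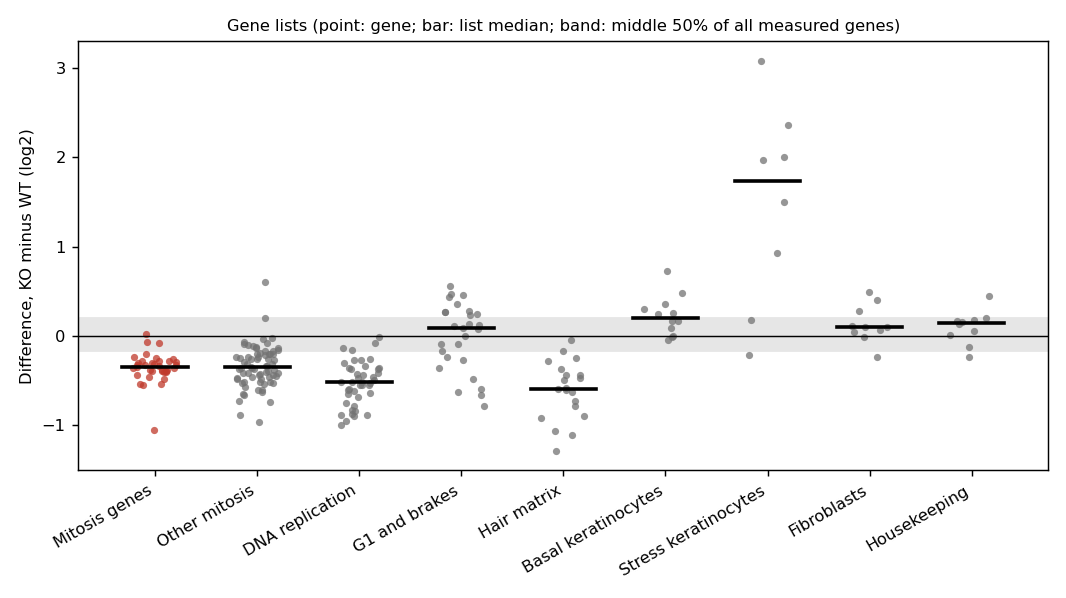
The difference of each gene, KO minus WT in log2, for 9 lists; points are genes, bars list medians and the band the middle 50% of all measured genes. Most mitosis genes lie close together below 0, with a median of -0.34, beside replication genes at -0.52 and hair matrix and shaft genes at -0.59.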

How the data were processed

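Skin RNA of 1 KO pool and 1 WT pool, each of 5 animals, was labelled with Cy3 and hybridised to 1 Agilent array per pool. The deposited scanner files hold each spot's intensity, background-subtracted and corrected for spatial trend by Agilent Feature Extraction 11.5.1.1, per the file headers and the submitters' processing notes. The deposited value table holds a linear ratio, which equalled that intensity divided by 2273 in the KO pool and 2406 in the WT pool; its medians were 0.0969 in the KO pool and 0.0946 in the WT pool. Log2 values were computed here from the deposited intensity, with control spots and 234 outlier spots left out, averaged per probe and set to each array's 75th percentile. Probes were named through RefSeq accession (28326), symbol (2204) or synonym (174), or kept the file's name (1526); 7192 had none. For each gene the brightest probe above background on both arrays was taken.

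The members and lists were chosen with earlier results of these data known. The text names every member, Pla2g4e and the 2 highest and 2 lowest genes of each other list, of which some are not reported here. Alternatives covered scaling, quantile and cyclic loess normalization, normexp (limma 3.58.1), probe choice, dim probes and the value table. The steps were tested on simulated data. The number of arrays limits the precision.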

Additional observations from a re-analysis of the deposited data

How the results depend on the processing

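The median of the 36 mitosis genes kept its sign and lay between -0.38 and -0.33 log2 in all 10 alternatives run, of which the centring on the median of measured genes and the restriction to probes on the gene's own chromosome were chosen after the data were seen. The count of members lower by at least 0.32 log2 ran from 15 of 27 brighter members to 25 of 36 with centred arrays. The share of all genes as low moved too, and in these settings was 9.69% of the brighter genes and 14.8% with centred arrays. Its lowest and highest values came from other settings. With normexp 19 members were as low, against 8.22% of all genes. Without the filter on dim probes 21 members were as low, against 20.7% of all genes. With quantile normalization the count was 23, against 14.4%. The count past 1.5-fold on the lower side, 1 in the report, was 2 with quantile normalization and 2 with cyclic loess. It was 0 among genes brighter than the median and 0 with own-chromosome probes alone, in both cases because Ttk drops out. In these settings 2.45% to 5.03% of the measured genes stood past it. The median of the other mitosis genes ran from -0.38 to -0.32 and that of replication genes from -0.55 to -0.50. Of 279 values of single members in the other 8 alternatives, 276 moved by less than the gene's scanner error. Of the members lower by at least 0.32 log2, 0 changed sign. Many of the 279 values could hardly move. Single values stayed identical without the filter on dim probes and among brighter genes. With the value table, or with scaling over probes above background only, all genes shifted by the same small amount. The count of 276 therefore says little on how firm the values are. The 3 values that moved more were Ttk (-0.74), Aurkb (-0.14) and Cenpf (0.01) with normexp, all from dim probes. With normexp, 34 of 36 members lay below 0, against 41.5% of all measured genes. Leaving out an array was not possible with 1 per genotype, and differences of this size cannot be set against the spread among animals. No paired analysis was possible because each genotype has 1 pool.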
